A study of Mus musculus with 8 samples.

Results

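The contents of cytotoxic granules were examined in T cells from WT and Alox15-/- mice through 10 genes of the 28239 gene symbols counted. They were 5 granzymes (Gzma, Gzmb, Gzmc, Gzmk and Gzmm), perforin (Prf1), the granule proteoglycan serglycin (Srgn), cystatin F (Cst7), cathepsin W (Ctsw) and the granule membrane protein NKG7 (Nkg7). The genes were chosen by name, and all 10 were found in the table of counts.

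Naïve CD4+ T cells were taken by negative selection from spleens of C57BL/6 mice of both genotypes and cultured for 2 days towards regulatory T cells (Tregs), a CD4+ lineage that restrains other immune cells. Every culture of either genotype was given the same stimulus, 1 activating CD3/CD28 bead for each cell, together with 5 ng/ml TGF-β and IL-2 at 100 U/ml. The methods give mice of 10 to 12 weeks and of both sexes, without saying which mouse had which sex. The RNA was profiled by MACE-seq, which counts transcripts near their 3′ ends, and the series holds 8 libraries from 4 mice per genotype. The Alox15-/- mice and the WT mice came from different suppliers, which cannot be told apart from the genotype.

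Granzymes are serine proteases that killer lymphocytes store in granules, bound to serglycin, and release into a target cell through pores made by perforin. Before release they are trimmed by cathepsin C, whose activity cystatin F restrains, while serpins of the cytosol inactivate granzymes that leak. Natural killer cells, CD8 T cells and some γδ T cells carry most of this programme, and Tregs can use granzyme B and perforin to kill other cells. Mast cells and basophils hold related proteases in granules that also contain serglycin.

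Between 3723151 and 9538962 counts were assigned to genes per library, and levels are given as counts per 1000000 (CPM) scaled by the TMM method of edgeR. A single count was worth between 0.1003 and 0.270 CPM. The targeted gene, Alox15 (chromosome 11), was higher in the libraries labelled Alox15-/-. It was at 70.2, 68.8, 63.4 and 65.0 CPM in the libraries labelled Alox15-/- and at 1.87, 2.55, 7.73 and 8.98 CPM in those labelled WT, a log2 fold change of 3.65 (SE 0.299, adjusted p = 1.08e-05). Reads near the 3′ end need not lie in the deleted part of the gene, which the sources used here do not give, so each difference below is named by the labels of the libraries. Whether any labels were exchanged cannot be settled from the counts, and an exchange of the groups would turn every direction given below. None of the 10 granule genes lies on the chromosome of Alox15. T cell and Treg markers were at a summed level of 3180 to 3380 CPM in the libraries labelled Alox15-/- and 3260 to 3520 CPM in those labelled WT.

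Of the 10 genes, 3 were higher in the libraries labelled Alox15-/- at an adjusted p under 0.05 in edgeR's quasi-likelihood test, namely Gzmb, Gzmc and Cst7, and 0 were lower. This adjusted p, used throughout, is that of edgeR with the Benjamini–Hochberg method over all 12700 genes tested. Among those genes, 1.05% were called higher, 0.197% lower and 1.24% in either direction. Another 4 granule genes were tested and did not pass, namely Gzma, Srgn, Ctsw and Nkg7. Gzmk, Gzmm and Prf1 did not reach the filter of at least 2 CPM in at least 4 libraries. Gzmb and Gzmc reached 2 CPM only in the 4 libraries labelled Alox15-/-, so their entry into the test already rested on the group in which they were high.

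**Figure D1:**
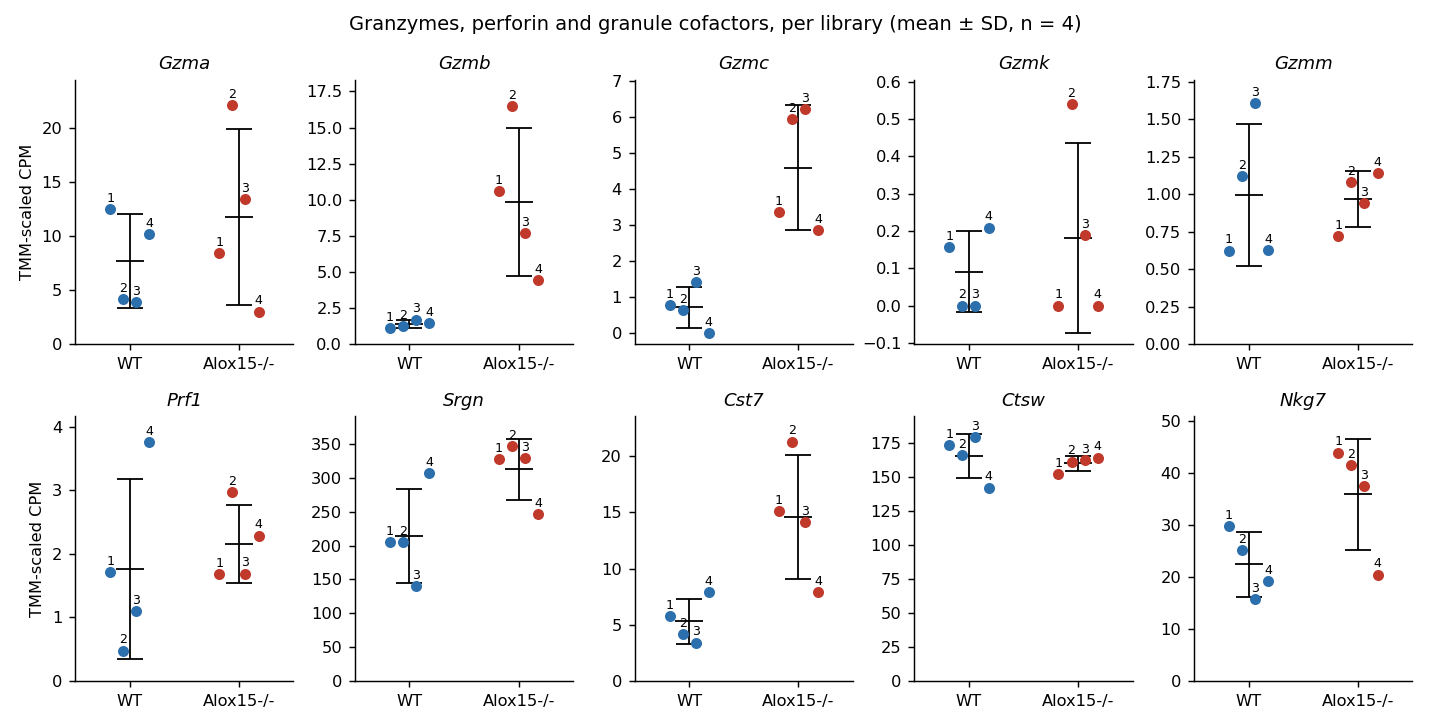
TMM-scaled CPM of each of the 10 granule genes (vertical axes, a scale of its own for each gene) in the 4 WT libraries (blue) and the 4 libraries labelled Alox15-/- (red), with the replicate number beside each point and bars for the mean ± SD. The groups do not overlap for Gzmb and Gzmc, while they do for the other genes, and Gzmk stays at or under 0.540 CPM in every library.

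Granzyme B, which cleaves after aspartate and can start apoptosis in a target cell, was one of the 3 genes past the threshold. Gzmb (ENSMUSG00000015437.5; chromosome 14, 56258838 to 56262260 in GRCm38, minus strand) has no overlapping gene in the annotation. It was at 10.6, 16.5, 7.71 and 4.44 CPM in libraries 1 to 4 labelled Alox15-/- and at 1.09, 1.27, 1.71 and 1.46 CPM in WT libraries 1 to 4. The lowest library labelled Alox15-/-, the one with replicate number 4, was still above the highest WT library. These levels rest on 31 to 61 counts per library in the first group and 7 to 17 in the second. The mean was 9.80 ± 5.10 CPM compared with 1.38 ± 0.263 CPM in WT (SD, n = 4 each), a log2 fold change of 2.74 (SE 0.388, adjusted p = 0.00106), or 6.66-fold. Gzmb stayed past the threshold in each of the 4 fits without 1 WT library. Without any 1 library labelled Alox15-/- it fell under the filter, and with the filter eased to 3 libraries it was past the threshold in all 4 of those fits, with a log2 fold change of at least 2.38.

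Granzyme C, a granzyme of rodents that strongly activated lymphocytes make, had a log2 fold change of 2.46 (SE 0.478, adjusted p = 0.0154). Gzmc (ENSMUSG00000079186.3; chromosome 14, 56231441 to 56234656, minus strand) starts at -27.6 kb from the start of Gzmb. It was at 3.36, 5.94, 6.21 and 2.86 CPM in the libraries labelled Alox15-/- and at 0.780, 0.637, 1.40 and 0 CPM in WT. Every library labelled Alox15-/- was above every WT library, and WT replicate 4 held 0 counts, which allows up to 0.626 CPM (3 counts, counting error only). Between 14 and 33 counts stood behind the higher values and at most 14 behind the lower. The call was lost without WT replicate 1 (adjusted p = 0.0635) or WT replicate 2 (0.0626). With the filter eased to 3 libraries it was lost without Alox15-/- replicate 2 (0.0535) or 3 (0.0779). The log2 fold change ran from 2.16 to 3.09 over the fits without 1 library. The last 300 bases of the Gzmc transcript match a stretch of the Gzmb transcript at 80.3% identity. The same search from the last 300 bases of Gzmb, and of each of the other 8 genes, found no similar transcript of another gene over at least 50 bases, so the annotated ends of Gzmb and Gzmc did not match each other.

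Cystatin F, an inhibitor of cathepsins that acts inside granules and endosomes, was the third gene past the threshold. Cst7 (ENSMUSG00000068129.5; chromosome 2, 150570415 to 150578944, plus strand) was at 15.1, 21.3, 14.1 and 7.87 CPM in the libraries labelled Alox15-/- and at 5.77, 4.14, 3.41 and 7.93 CPM in WT. Replicate 4 labelled Alox15-/- lay just under WT replicate 4, so the groups overlapped at that pair, while the other 3 libraries of the first group were above all WT libraries. The mean was 14.6 ± 5.51 CPM compared with 5.31 ± 2.01 CPM in WT (SD, n = 4 each), a log2 fold change of 1.47 (SE 0.307, adjusted p = 0.0238). Leaving out 1 library at a time ended the call in 6 of 8 fits, with an adjusted p between 0.0746 and 0.109. It held only without Alox15-/- replicate 4 or without WT replicate 4, the 2 libraries that overlapped, and the log2 fold change was between 1.24 and 1.71 over the 8 fits.

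The promoters of the 3 higher genes are shown because these genes passed the test. The lines give the 250 bases before the RefSeq start of each gene in GRCm38.p6, on the strand of the gene, from chr14:56262335-56262584 for Gzmb, chr14:56234658-56234907 for Gzmc and chr2:150570165-150570414 for Cst7. Capitals mark matches to RUNX (TGTGGT), AP-1 (TGANTCA), NFAT (GGAAA) and CRE (TGACGTCA) letters on either strand, and TCACACC for T-box factors was searched as well.
Gzmb: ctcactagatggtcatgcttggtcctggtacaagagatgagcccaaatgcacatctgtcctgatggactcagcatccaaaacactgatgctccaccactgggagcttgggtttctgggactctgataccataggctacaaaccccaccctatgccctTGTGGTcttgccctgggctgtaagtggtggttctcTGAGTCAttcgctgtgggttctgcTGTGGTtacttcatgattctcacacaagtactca
Gzmc: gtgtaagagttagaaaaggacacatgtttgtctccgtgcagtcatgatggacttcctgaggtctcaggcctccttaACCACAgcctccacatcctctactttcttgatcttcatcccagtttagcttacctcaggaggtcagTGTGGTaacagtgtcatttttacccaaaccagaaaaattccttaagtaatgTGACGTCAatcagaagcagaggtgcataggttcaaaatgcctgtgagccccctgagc
Cst7: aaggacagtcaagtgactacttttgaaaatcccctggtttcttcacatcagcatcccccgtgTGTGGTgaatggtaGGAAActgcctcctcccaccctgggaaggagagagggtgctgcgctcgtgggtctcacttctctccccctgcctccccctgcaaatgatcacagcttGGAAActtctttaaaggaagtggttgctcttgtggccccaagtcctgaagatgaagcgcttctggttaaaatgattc
Gzmb held RUNX letters starting at -93 and -34 from the start and AP-1 letters at -58. Gzmc held RUNX letters at -174 and -108 and the CRE letters at -57, and Cst7 held RUNX letters at -188 and NFAT letters at -174 and -77. RUNX letters were found in 14.0% of 32851 mouse promoters of the same length, and at least 2 matches in 1.27%. Among the 9 granule genes with a promoter in the table, 8 held them, including Gzma, Srgn and Nkg7, which did not pass the test, and Gzmm and Prf1, which were under the filter. The AP-1 letters stood in 6.75% of all promoters and the CRE letters in 1.55%, and among the granule genes the former were found in Gzmb and the latter in Gzmc. NFAT letters were in 55.6% of all promoters and in 5 of the 9. T-box letters were in 3.33% of all promoters and in 3 of the 9. The RefSeq start of Gzmb lies upstream of the GENCODE gene model given above, and Gzmm and Srgn have 2 promoters each in the table. A match to these letters is not a measured binding site.

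**Figure D2:**
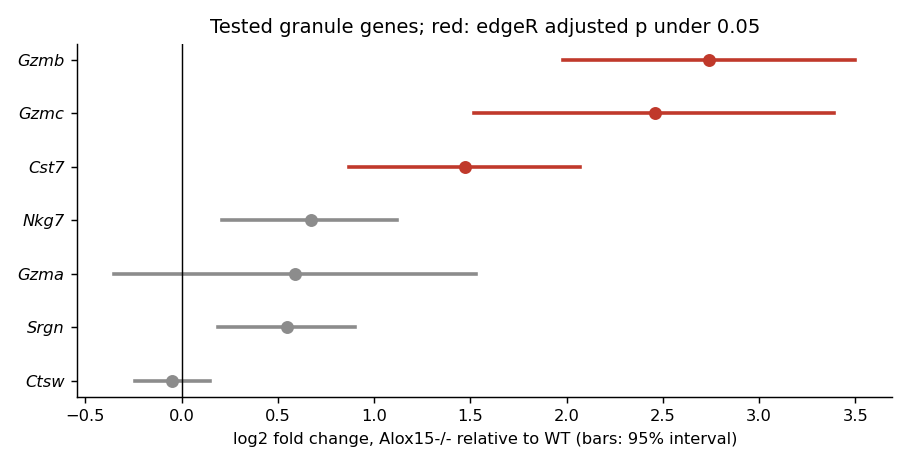
Log2 fold change of the 7 tested granule genes in the libraries labelled Alox15-/- relative to WT (horizontal axis), with bars for the 95% interval from the standard error. Gzmb (2.74), Gzmc (2.46) and Cst7 (1.47) are drawn in red as past the adjusted threshold, and Ctsw (-0.05) is the only gene whose point lies below 0.

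Granzyme A, a protease that cleaves after basic residues, did not separate the groups. Gzma (chromosome 13, 113093825 to 113100981, minus strand) was at 8.41, 22.1, 13.4 and 3.01 CPM in the libraries labelled Alox15-/- and at 12.5, 4.14, 3.91 and 10.2 CPM in WT. The lowest of all 8 values belonged to Alox15-/- replicate 4 and the highest to Alox15-/- replicate 2. The log2 fold change was 0.59 (SE 0.480, adjusted p = 0.831), with a 95% interval from -0.35 to 1.53. Without Alox15-/- replicate 2 it was 0.11, and without Alox15-/- replicate 4 it was 0.96.

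Serglycin, the proteoglycan on which granzymes and mast cell proteases are packed, was far from the limit of detection, with 1284 to 1749 counts per library. Srgn (chromosome 10, 62493833 to 62527451, minus strand) was at 328, 347, 329 and 246 CPM in the libraries labelled Alox15-/- and at 205, 205, 140 and 307 CPM in WT. Alox15-/- replicates 1 to 3 were above every WT library, and the groups overlapped through WT replicate 4, which stood above Alox15-/- replicate 4. The log2 fold change of 0.55 (SE 0.183) had an unadjusted p of 0.00909 and an edgeR adjusted p of 0.324. Without WT replicate 4 it was 0.77 with an edgeR adjusted p of 0.00941, and with no filter on low counts it was 0.52 with an edgeR adjusted p of 4.56e-04. The fit with no filter called 388 genes, against 158 with the filter. In it the edgeR adjusted p of the mast cell protease gene Mcpt2 went from 1.65e-04 to 1.09e-131, at log2 fold changes of 3.94 and 3.91. Adjusted p values of that fit are therefore not comparable with the others.

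NKG7, a membrane protein of cytotoxic granules needed for their efficient release, was likewise highest in Alox15-/- replicates 1 to 3. Nkg7 (chromosome 7, 43437073 to 43438249, plus strand) was at 44.0, 41.6, 37.6 and 20.5 CPM in the libraries labelled Alox15-/- and at 29.8, 25.2, 15.7 and 19.2 CPM in WT. Those 3 libraries were above all WT libraries, and Alox15-/- replicate 4 lay within the WT range. The log2 fold change of 0.67 (SE 0.233) had an unadjusted p of 0.0119 and an edgeR adjusted p of 0.375. Without Alox15-/- replicate 4 it was 0.88 with an edgeR adjusted p of 0.0488, and with no filter 0.64 with an edgeR adjusted p of 0.00357. The limit given for Srgn holds for this last value too. At an unadjusted p under 0.05, 5 of the 7 granule genes tested were higher, against 4.46% of all genes higher and 7.84% in either direction.

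Cathepsin W, a papain-like protease of CD8 T cells and natural killer cells that is not needed for killing, differed by less than the spread between libraries. Ctsw (chromosome 19, 5465043 to 5468507, minus strand) was at 152, 161, 162 and 164 CPM in the libraries labelled Alox15-/- and at 173, 166, 179 and 142 CPM in WT. All 4 values of the former group lay inside the WT range. The log2 fold change was -0.05 (SE 0.0982, adjusted p = 0.946), with a 95% interval from -0.24 to 0.15, and 598 to 1784 counts per library. Ctsw overlaps Fibp on the opposite strand, and reads of the 2 genes cannot be told apart if the counting did not use strand.

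The pore-forming protein perforin was near the filter in both groups. Prf1 (chromosome 10, 61297833 to 61304680, plus strand) was at 1.68, 2.97, 1.69 and 2.29 CPM in the libraries labelled Alox15-/- and at 1.72, 0.478, 1.10 and 3.76 CPM in WT, from 43 counts in each group. WT libraries gave both the lowest and the highest value. The mean log2(CPM + 1) differed by 0.31, less than the pooled SD of 0.537 (two-sided exact permutation test, p = 0.457, where 4 libraries against 4 cannot go below 0.0286). It was 0.05 without WT replicate 2 and 0.61 without WT replicate 4.

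Granzyme M, a protease that cleaves after methionine or leucine and is typical of natural killer cells, was counted 20 times in the libraries labelled Alox15-/- and 30 times in WT. Gzmm (chromosome 10, 79689020 to 79695261, plus strand) was between 0.721 and 1.14 CPM in the former and between 0.624 and 1.61 CPM in the latter, where WT replicate 2 lay inside the range of the former group, 2 WT libraries below it and 1 above it. The difference of log2(CPM + 1) was 0.01 (pooled SD 0.254, two-sided exact permutation test, p = 0.971). Granzyme K, a tryptase of memory T cells, was at or under the limit of 3 counts in every library, with 3 counts in all libraries labelled Alox15-/- together and 2 in all WT libraries. No fold change is given for Gzmk (chromosome 13, 113171608 to 113225908, minus strand), which overlaps Esm1 on the opposite strand.

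Over the 7 tested granule genes, 6 had a log2 fold change above 0 and the median was 0.67, against 48.2% above 0 and a median of -0.01 over all genes tested. Since 2 of the 7 entered the test only through their level in the libraries labelled Alox15-/-, these figures describe the list and do not test it. In 2 of the 10 genes the groups did not overlap, both higher in the libraries labelled Alox15-/-, a pattern that 2.75% of all tested genes showed in that direction and 5.25% in either. The libraries of a group were not alike. Alox15-/- replicate 4 was the lowest of its group for 6 of the 7 tested genes, Ctsw being the exception, and Alox15-/- replicate 2 was the highest for 4. Among the WT libraries, replicate 4 was the highest of its group for 4 of the 10 genes (Gzmk, Prf1, Srgn and Cst7) and replicate 3 for the same number (Gzmb, Gzmc, Gzmm and Ctsw).

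Markers of other cells also differed, most lists being higher in the libraries labelled Alox15-/- and the CD8 T cell and B cell lists lower. The 9 natural killer cell markers, among them Klrc1 and Klrd1, were together at 27.9, 49.7, 32.2 and 17.5 CPM in the libraries labelled Alox15-/- and at 6.21 to 15.1 CPM in WT, with 8 of the 9 at a higher group mean. Klrd1 and Klrc1 passed edgeR's adjusted threshold out of 3 tested, where 1.05% of all tested genes were called higher. Before TMM scaling Klrc1 reached 2 CPM only in the libraries labelled Alox15-/-, so its entry into the test rested on that group. Ncr1, which defines natural killer cells, had a mean of 0.342 CPM against 0.413 CPM in WT. The 6 γδ T cell markers measured were together at 130, 141, 128 and 77.6 CPM against 26.9 to 44.2 CPM in WT, with 5 of the 6 at a higher group mean. All 4 tested were past the threshold, which 1.05% of all tested genes passed in that direction. Trdc, the constant gene of the δ chain, had a mean of 65.3 CPM against 18.3 CPM in WT. The CD8 T cell markers Cd8a and Cd8b1 summed to at most 21.8 CPM in the libraries labelled Alox15-/- and at least 21.3 CPM in WT, and neither passed the adjusted threshold.

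Mast cell and basophil markers were together at 234, 376, 187 and 145 CPM in the libraries labelled Alox15-/- and at 59.3 to 83.9 CPM in WT, with 10 of 11 at a higher group mean and 8 of 9 tested past the threshold, which 1.05% of all tested genes passed in that direction. Of the 8, Ms4a2, Prss34, Hdc and Cma1 reached 2 CPM only in the libraries labelled Alox15-/-, so their entry into the test rested on that group. The exception among the means was Kit, with a mean of 30.7 CPM against 31.5 CPM in WT. Mcpt4 had 2, 3, 0 and 0 counts in the libraries labelled Alox15-/- and 0 in all WT libraries. Myeloid markers were at 51.4 to 348 CPM against 13.4 to 22.5 CPM with 11 of 11 at a higher mean. Eosinophil markers were at 20.9 to 71.5 CPM against 1.25 to 10.2 CPM with 6 of 7 at a higher mean. Ccr3 went the other way, with a mean of 0.107 CPM against 1.63 CPM in WT. Ear2 and Ear6 were at 0 in all WT libraries and had at most 4 and 15 counts in any library labelled Alox15-/-. Ear2 was also at 0 in Alox15-/- replicate 1. Erythroid markers were at 902 to 3470 CPM against 32.8 to 122 CPM with 6 of 6 at a higher mean, and B cell markers at 5.53 to 7.52 CPM against 8.27 to 19.2 CPM with 1 of 5 at a higher mean. The natural killer cell, γδ T cell, mast cell and basophil, eosinophil and myeloid sums were all lowest in Alox15-/- replicate 4 and highest in Alox15-/- replicate 2 within the group. In bulk RNA, more cells of a type and more RNA per cell cannot be told apart. The negative selection is meant to remove these other cells, and the methods describe its product as nearly pure CD4+ T cells. The part of these cells in the levels of Gzmb, Gzmc, Cst7, Srgn and Nkg7 was not tested.

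**Figure D3:**
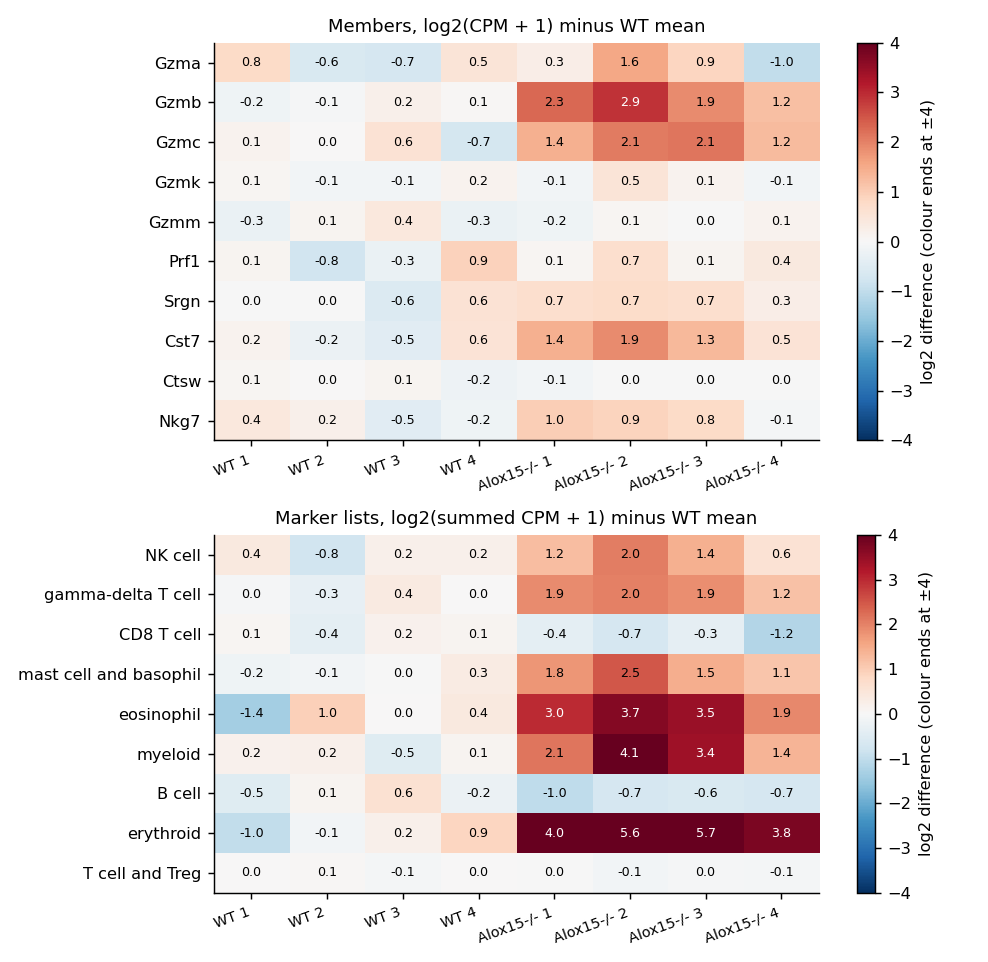
Level of each granule gene (upper panel, log2 of CPM + 1) and summed level of each marker list (lower panel, log2 of summed CPM + 1) in the 8 libraries (columns), given as the difference from the WT mean and coloured from blue (lower) to red (higher). Gzmb, Gzmc, Cst7, Srgn and Prf1 are above the WT mean in all 4 libraries labelled Alox15-/-. So are the natural killer, γδ T, mast cell and basophil, eosinophil, myeloid and erythroid sums. The CD8 T cell and B cell sums are below it in all 4, whereas Ctsw and the T cell and Treg sum stay near 0.

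Gzmb and Gzmc belong to a cluster on chromosome 14 that also holds chymases and cathepsin G, serine proteases of mast cells, basophils and neutrophils. Of the 15 genes named for the cluster, 11 were measured and 7 tested, and all 7 were higher at the adjusted threshold, where 1.05% of all tested genes were. With edgeR's robust fit 6 of the 7 passed, Mcpt2 being at an adjusted p of 0.0716. Mcpt8, a protease of basophils, was at 77.8, 126, 54.4 and 42.8 CPM in the libraries labelled Alox15-/- and at 4.52, 5.42, 6.02 and 15.4 CPM in WT. Its log2 fold change was 3.31 (SE 0.366, adjusted p = 1.17e-04). Mcpt8 starts at -177.0 kb from the start of Gzmb. Ctsg had a log2 fold change of 4.42, Mcpt2 of 3.94, Mcpt1 of 3.63 and the mast cell chymase Cma1 of 3.97. In all 7 the 4 libraries labelled Alox15-/- were above the 4 WT libraries, a pattern that 2.75% of all tested genes showed. Cma1, like Gzmb and Gzmc, reached 2 CPM only in the libraries labelled Alox15-/-. Mcpt8 and Cma1 are also on the list of mast cell and basophil markers, and Mcpt1 and Mcpt2 are close relatives whose reads the counting could split. Gzmf was at or under 0.810 CPM in every library, and Gzmd, Gzme, Gzmg and Gzmn were looked for but are not among the gene symbols counted.

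**Figure D4:**
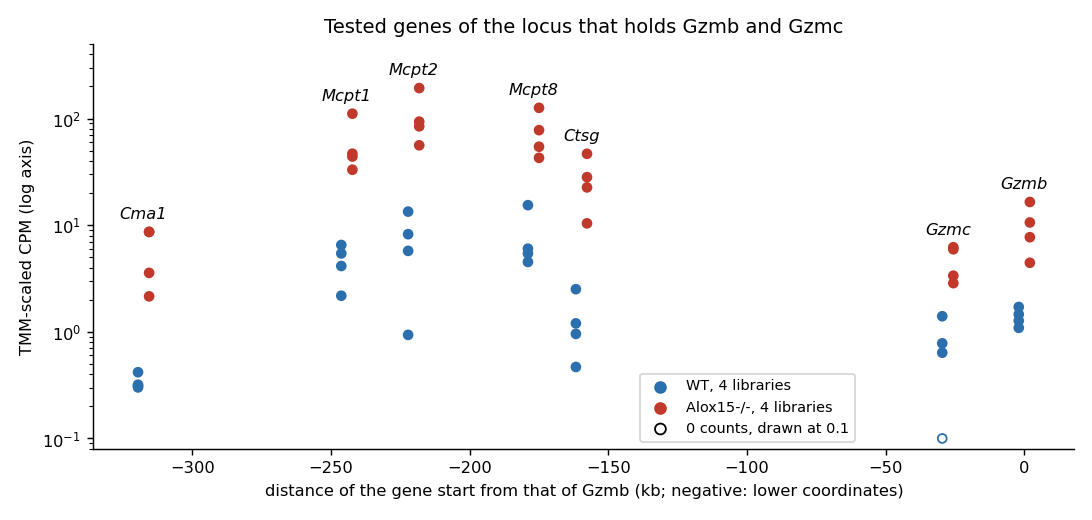
TMM-scaled CPM (log axis) of the 7 tested genes of the cluster against the distance of each gene's start from that of Gzmb in kb, with WT libraries in blue and libraries labelled Alox15-/- in red. From Cma1 at -317.6 kb to Gzmb at 0 kb the red points lie above the blue points at every gene, and the open circle stands for the 0 counts of Gzmc in WT replicate 4.

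Of 13 genes for granule proteases, their inhibitors and sorting receptors, 11 were tested and 0 passed edgeR's adjusted threshold. At an unadjusted edgeR p under 0.05 there were 3, all higher, against 4.46% of all genes tested, and the median log2 fold change was 0.10. DESeq2 and limma-voom called 0 of them too. Cathepsin C, which activates granzymes, was at 96.2 ± 19.3 CPM compared with 96.4 ± 8.55 CPM in WT (SD, n = 4 each), a log2 fold change of -0.01 (SE 0.132). The highest value was that of legumain, Lgmn (0.60, edgeR adjusted p = 0.343), and the lowest that of the lysosomal protein Lamp2 (-0.09, edgeR adjusted p = 0.936).

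Of 5 serpins that inhibit granule proteases, 4 were tested. Serpinb1a, an inhibitor of neutrophil serine proteases such as cathepsin G, was the only one past the threshold, at 18.3, 33.7, 10.9 and 5.30 CPM in the libraries labelled Alox15-/- and at 1.87, 0.478, 1.0 and 1.04 CPM in WT. Its log2 fold change was 3.88 (SE 0.538, adjusted p = 8.79e-04), and it too reached 2 CPM only in the former libraries. Serpinb9, the inhibitor of granzyme B, was at 24.1 ± 6.61 CPM compared with 21.1 ± 5.49 CPM in WT (SD, n = 4 each), a log2 fold change of 0.18 (SE 0.216, adjusted p = 0.891). Serpinb6b had the lowest value of the list, with a log2 fold change of -0.44 (adjusted p = 0.650).

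All 21 genes of granule transport and release were tested, from Rab27a and Unc13d, which dock and prime granules, to the SNARE proteins that fuse them with the membrane. In edgeR's test 0 passed the adjusted threshold, 1 had an unadjusted p under 0.05, and the median was -0.03, close to that of all genes. DESeq2 and limma-voom also called 0. Rab27a was at 80.4 ± 11.6 CPM compared with 74.8 ± 5.61 CPM in WT (SD, n = 4 each). The values ran from -0.22 for Was, an actin regulator, to 0.50 for Lyst, which controls the size of lytic granules (adjusted p = 0.561).

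Of 23 transcription factors that shape cytotoxic or memory programmes, 20 were tested and 0 passed in edgeR, DESeq2 or limma-voom. At an unadjusted edgeR p under 0.05 there were 4, against 7.84% of all genes tested. The median log2 fold change was 0.03. Eomes was at 5.31 ± 1.65 CPM compared with 3.25 ± 0.833 CPM in WT (SD, n = 4 each), a log2 fold change of 0.66 (adjusted p = 0.592). Tbx21, which encodes T-bet, was at 30.4 ± 14.7 CPM compared with 23.2 ± 9.64 CPM in WT (SD, n = 4 each), and Runx3 at 129 ± 42.3 CPM compared with 125 ± 33.6 CPM in WT (SD, n = 4 each), differences smaller than the spread between libraries. Runx2, named here after its values were seen, had the smallest unadjusted p of the list (0.00424), at 7.51 ± 2.24 CPM compared with 3.84 ± 0.820 CPM in WT (SD, n = 4 each), a log2 fold change of 0.93 (edgeR adjusted p = 0.212). The highest value was that of Stat4 (0.96, edgeR adjusted p = 0.612), and the lowest that of Irf4 (-0.38, edgeR adjusted p = 0.561).

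The 9 cytokines, chemokines and death ligands that cytotoxic cells release were all tested, and 0 passed edgeR's adjusted threshold. In edgeR 5 had an unadjusted p under 0.05, 4 of them higher, against 7.84% of all genes tested in either direction and 4.46% higher. DESeq2 called 2 of them and 194 of all genes, and limma-voom 1 of them and 140 of all genes. Xcl1, a chemokine of activated killer cells, came closest, at 21.4, 13.5, 19.8 and 9.87 CPM in the libraries labelled Alox15-/- and at 6.39, 4.14, 3.11 and 11.5 CPM in WT. Its log2 fold change was 1.42 (SE 0.344, adjusted p = 0.0653), and the groups overlapped at WT replicate 4. Without WT replicate 4 edgeR called 3 of the 9 genes and 173 of all genes. In the same library Ccl4 was at 143 CPM, against 10.9 to 31.5 CPM in the other WT libraries and 21.0 to 49.5 CPM in those labelled Alox15-/-, and its log2 fold change of -0.73 (SE 0.555, adjusted p = 0.819) was the lowest of the list. Fasl and Tnf were also highest in WT replicate 4, at 13.2 CPM and 135 CPM.

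**Figure D5:**
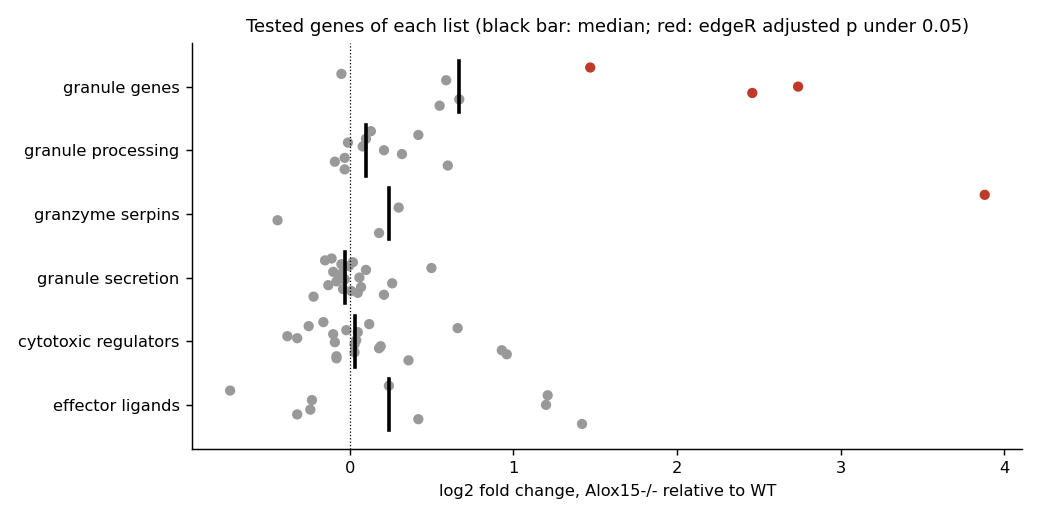
Log2 fold change of every tested gene (points) of the granule genes and of 5 further lists in the libraries labelled Alox15-/- relative to WT, with a black bar at the median of each list and red for genes past edgeR's adjusted threshold. The red points are Gzmb, Gzmc and Cst7 in the top row and Serpinb1a among the serpins, and the medians of the other lists lie between -0.03 and 0.24.

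The genes whose profile over the 8 libraries was closest to each of the 3 called genes were found by the root mean square difference of log2 CPM after centring each gene on its own mean. Closest to Gzmb were Fgl2, a secreted fibrinogen-like protein (0.165 log2 units), Hdc, which makes histamine (0.201), and Ly6c2, a surface protein of monocytes and memory T cells (0.224). For Gzmc they were Xaf1 (0.470), Cybb, the catalytic subunit of the phagocyte oxidase (0.541), and Il6 (0.588), all less close than the neighbours of Gzmb. For Cst7 they were the receptor gene P2ry14 (0.190), the chemokine gene Cxcl10 (0.192) and Fscn1, which bundles actin (0.216). Fgl2 was at 21.9 CPM on average in the libraries labelled Alox15-/- and 3.07 CPM in WT, with a log2 fold change of 2.74 (adjusted p = 0.00132), the same as that of Gzmb to 2 decimals. These profiles share the same 8 libraries and their group difference, so closeness here is a description.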

How the data were processed

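Raw counts for each gene symbol were deposited by the authors for 4 libraries of each genotype, made by MACE-seq per the methods and with a small RNA kit per the labels. The submitters' processing notes name Bowtie, edgeR and GRCm38, and the counting tool and use of strand are not given in the sources used here. Columns were matched to libraries by name.

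Tested were the 12700 of 28239 symbols that reached 2 CPM in 4 or more libraries, the filter of the methods, by the quasi-likelihood test of edgeR 4.0.16 (R 4.3.3) with TMM scaling and Benjamini–Hochberg adjustment over all of them. The biological coefficient of variation was 14.5%. Totals were between 3723151 and 9538962 counts per library. Standard errors were log2 fold changes divided by the square root of F. Genes under the filter were compared by a two-sided exact permutation test of log2(CPM + 1) in scipy 1.17.1. On simulated data for this comparison, the test called 184 of 200 genes shifted by 1.5 on the log2 scale and 9 unshifted ones, of 12700 in all.

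Genes and lists were chosen with earlier results of these data known. Named were all 10 granule genes, Alox15, in each pathway or cluster list the genes past the threshold and its highest and lowest, and the 3 genes closest in profile to each called gene. Cathepsin C, Serpinb9, Rab27a, Eomes, Tbx21, Runx2, Runx3, Fasl, Tnf and single markers were added for their role or after their values were seen. Coordinates are from GENCODE M21 (GRCm38), promoters from RefSeq (GRCm38.p6), matched for 9 of 10 genes, and similar transcripts were sought with blastn 2.17.0. The smallest chi-square per degree of freedom between libraries of a group was 4.54, so none were copies. Alternatives were other scalings, filters and tests (DESeq2 1.42.0, limma-voom 3.58.1), a replicate block and each library left out.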

Additional observations from a re-analysis of the deposited data

How the results depend on the processing

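The count of 3 granule genes past the threshold was the same with DESeq2 size factors, upper quartile scaling, totals without hemoglobin, filterByExpr, DESeq2, limma-voom, robust and likelihood-ratio edgeR. It was 5 with no filter, where Srgn and Nkg7 joined and 388 of all genes passed, and 1 with at least 10 counts in every library. Without 1 library at a time it was 0 to 4, with 0 without Alox15-/- replicate 1, 2 or 3 and 1 without WT replicate 1 or 2. Gzmb and Gzmc fell under the filter whenever a library labelled Alox15-/- was left out, so the filter was also set at 3 libraries for those fits, chosen after seeing the data, and the count was then 1 to 4, with Gzmb called in all 4. A filter on the mean over all libraries, also chosen after seeing the data, gave 3. Replicate numbers did not pair the libraries: deviations of libraries of the same number correlated at -0.18 to 0.17, and 2 of 4 correlated best with their own number. With the replicate block, 3 granule genes and 146 of all genes passed, and no call on a granule gene changed, Cst7 staying at an edgeR adjusted p of 0.0495.

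All genes past the threshold numbered 158, 194 with DESeq2, 140 with limma-voom, 224 with the likelihood-ratio test, 388 with no filter, 100 with at least 10 counts in every library and 86 to 173 without 1 library (108 to 168 at 3 libraries), with 105 or fewer without Alox15-/- replicate 1, 2 or 3 or WT replicate 2. With no filter edgeR called 1 granule processing gene, 1 regulator and 4 effector ligands. At least 10 counts in every library left 0 serpins and 2 cluster genes called. The effector ligands were 2 with DESeq2, 1 with limma-voom, 2 with the likelihood-ratio test and 0 to 3 without 1 library. Without 1 library 0 to 1 serpins and 4 to 7 cluster genes were called, with 0 and 4 without any 1 library labelled Alox15-/-, and 6 to 7 cluster genes at 3 libraries, where granule processing genes and regulators ran from 0 to 1. Signs turned for values near 0: Ctsw ran from -0.11 to 0.001 without 1 library, positive without WT replicate 3, Gzmk ran between -0.04 and 0.17, and Gzmm between -0.08 and 0.15. The cause was not tested. Gzmk, Gzmm and Prf1 rest on at most 18 counts in any library, and whether depth or the spread between libraries limits them was not tested. The fold change of Gzmb was above that of Gzmc with edgeR on all libraries and below it with limma-voom (2.47 against 2.96) and without WT replicate 3 (2.89 against 3.09).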

Other observations

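Several genes known from T cells or from lysosomes of most cells were counted near 0 in every library. Tcf7, a transcription factor of naïve T cells, had a mean of 1.23 CPM in the libraries labelled Alox15-/- and 0.651 CPM in WT, with 1 to 8 counts per library. The lysosomal protease gene Ctsd had means of 0.0828 CPM and 0.196 CPM, with at most 3 counts per library. A low count in this table, as for Gzmk, Gzmm or Prf1, is therefore given as a count and not as absence of the transcript.

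Foxp3, which defines Tregs, lay between 71.4 and 113 CPM in the libraries labelled Alox15-/- and at 109, 101, 194 and 92.9 CPM in WT (log2 fold change -0.42, adjusted p = 0.655 by edgeR). Without WT replicate 3 the log2 fold change was -0.11 (adjusted p = 0.878 by edgeR), and with no filter on low counts it was -0.45 (adjusted p = 0.0189 by edgeR). The last value comes from the fit that called 388 of all genes, against 158 with the filter. Cd4 lay between 209 and 296 CPM and between 326 and 350 CPM, without overlap (log2 fold change -0.32, adjusted p = 0.358 by edgeR).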
